A study of Caenorhabditis elegans with 2 samples.

Results

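The ceh homeobox genes outside the Hox and TALE groups comprise 59 of the 19973 protein-coding genes on the nuclear chromosomes of Caenorhabditis elegans, and UNC-62 ChIP-seq peaks at them were examined in whole L4 larvae, the last larval stage. Members were the genes named ceh with a number in the Ensembl annotation of WBcel235, without ceh-13, ceh-20, ceh-40 and ceh-60, which are Hox or TALE genes. ChIP-seq recovers and sequences the DNA that is crosslinked to a protein, and peaks mark where the recovered fragments pile up. The labels give 1 group with 2 biological replicates, each with 1 technical replicate, of strain OP602. Animals of this stable transgenic line, pooled from both sexes, express UNC-62 fused at its C-terminus to GFP-FLAG, and the labels record an insertion targeting unc-62 and unc-62 as the antibody's target. The data are peak lists with a signal value per peak: 15466 peaks in replicate 1, 24524 in replicate 2 and 30000 from both replicates pooled. A further list of 114 peaks was kept by the authors' irreproducible discovery rate (IDR) procedure, which retains peaks that rank alike between replicates. No read depth is known, and the precision of each share is set by the number of genes or peaks. Coordinates are in ce11 and count from 1.

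Homeobox genes encode transcription factors that bind DNA through a homeodomain, and they give many worm neurons, muscles and epidermal cells their identity. UNC-62 itself has a homeodomain and belongs to the Meis/Homothorax family within the TALE group. Proteins of that family bind DNA beside PBC partners, which in the worm include CEH-20 and CEH-40, and beside Hox proteins. The ceh genes described here belong to other homeodomain classes, among them the CUT, POU, LIM, sine oculis, paired-like and Antennapedia-like (ANTP) classes. A summit was counted for a gene if it lay in the gene or within 5000 bp upstream of it. Peaks were ranked within each list by the authors' signal value, with rank 1 the strongest. Whole animals were used, so strong binding in few cells and weak binding in many cannot be told apart.

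The sequences below are the plus strand around 7 pooled summits. The first 4 genes hold the strongest pooled summits at any member, and the last 3 windows hold the Meis core TGACAG near the summit. Capitals mark TGACAG, TGATNNAT (a composite Hox and PBC site), TAATTA (a homeodomain core) or GAGAGA, each on either strand, so that TGACAG also reads CTGTCA. The ceh-38 sequence is cut to 30 bases around its match because the rest of that window runs into the 5' UTR. It covers chrII:6951509-6951538. The others are windows that reach 100 bases to either side of the summit: chrV:14177360-14177560 for ceh-74, chrIII:7835919-7836119 for ceh-23, chrV:10668166-10668366 for ceh-22, chrV:11706064-11706264 for ceh-32, chrX:14201257-14201457 for ceh-37 and chrX:3063163-3063363 for ceh-30. The ceh-23 window held none of the 4 patterns.
ceh-38: tctgtctacattCTGTCAggcaattcgttg
ceh-74: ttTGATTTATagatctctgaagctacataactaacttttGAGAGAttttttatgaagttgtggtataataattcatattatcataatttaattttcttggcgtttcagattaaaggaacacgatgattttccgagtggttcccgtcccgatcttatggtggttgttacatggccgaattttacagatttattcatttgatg
ceh-23: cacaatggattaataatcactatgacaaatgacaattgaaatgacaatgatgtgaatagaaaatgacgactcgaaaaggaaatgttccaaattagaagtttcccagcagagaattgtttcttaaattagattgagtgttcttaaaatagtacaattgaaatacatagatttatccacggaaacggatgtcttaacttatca
ceh-22: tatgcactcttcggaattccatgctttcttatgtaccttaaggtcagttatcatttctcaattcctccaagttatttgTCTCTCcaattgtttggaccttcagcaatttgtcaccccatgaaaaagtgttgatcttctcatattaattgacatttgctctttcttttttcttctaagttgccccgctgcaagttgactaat
ceh-32: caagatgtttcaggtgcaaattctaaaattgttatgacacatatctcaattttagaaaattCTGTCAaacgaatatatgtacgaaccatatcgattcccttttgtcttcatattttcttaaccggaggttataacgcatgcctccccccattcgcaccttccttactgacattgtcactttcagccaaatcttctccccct
ceh-37: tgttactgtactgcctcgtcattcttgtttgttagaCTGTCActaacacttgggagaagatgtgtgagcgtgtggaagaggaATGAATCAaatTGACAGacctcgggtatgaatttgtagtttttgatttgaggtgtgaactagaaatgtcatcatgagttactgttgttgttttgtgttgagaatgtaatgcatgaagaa
ceh-30: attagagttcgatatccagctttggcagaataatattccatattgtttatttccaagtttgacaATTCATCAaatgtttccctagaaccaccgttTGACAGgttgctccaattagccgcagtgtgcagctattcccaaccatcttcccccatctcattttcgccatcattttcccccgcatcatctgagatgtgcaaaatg

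No ceh gene outside Hox and TALE carried an IDR summit. The count was 0 of 59, which allows a share of up to 5.08%, against 174 of 19914 other protein-coding genes, or 0.874%, and 59 genes are too few to show a share below that background. The unc-62 gene itself held 4 IDR summits and the strongest pooled peak, of signal value 105. The line carries an insertion targeting unc-62, and its part in this value was not tested. The weakest IDR peak had a signal value of 32.5, and the strongest pooled peak at any member reached 28.6. The distance from a member's window to the nearest IDR summit had a median of 470102 bp. Such distances were not measured for other genes, so they do not show whether members lie unusually far from or near to IDR peaks. The shortest was 1525 bp at ceh-76, to an IDR summit of rank 74 nearest to the start of Y97E10AR.1. At ceh-23 the nearest IDR summit lay 13196 bp away, beside rpl-35, and these 2 genes were the members with an IDR summit within 20000 bp.

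Weaker peaks lay at most of the genes, at about the frequency found elsewhere. A pooled summit was present for 54 of the 59 members, or 91.5% (95% exact Clopper-Pearson interval 81.3 to 97.2%), against 87.6% of the other genes. Among the 3000 strongest pooled peaks, summits lay at 8 members, or 13.6% (6.04 to 24.98%), against 20.3%. Among the 1000 strongest they lay at 3 members, ceh-38, ceh-74 and ceh-23, or 5.08% (1.06 to 14.1%), against 7.62%. A pooled peak that overlapped a peak of each replicate by at least 1 bp was found at 16 members, or 27.1% (16.4 to 40.3%), against 33.1%. Each of these 4 intervals contained the share of the other genes. Intervals cover counting error over genes only. Per length, the 480.6 kb of member windows held 129 distinct summits, or 0.268 per kb, against 0.304 per kb in the windows of other genes and 0.299 per kb over the genome.

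**Figure D1:**
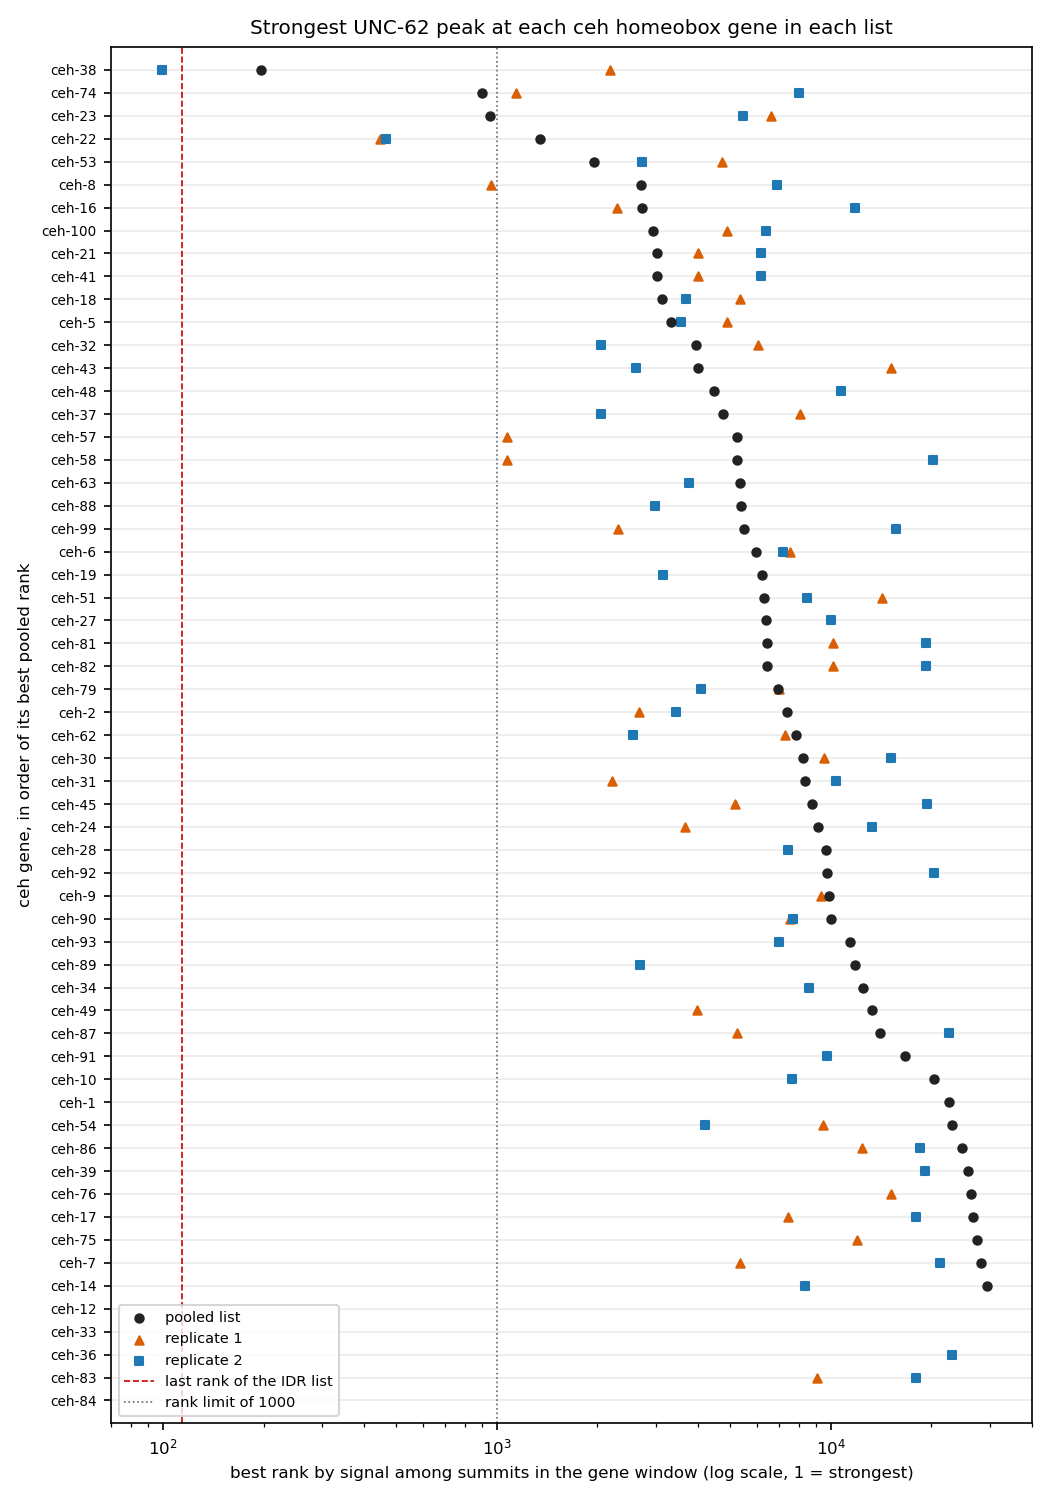
Best rank by signal value among the summits in each gene's window (log axis, 1 is the strongest), for the pooled list (black circles), replicate 1 (orange triangles) and replicate 2 (blue squares). Genes are in order of pooled rank, from ceh-38 at 197 to ceh-14 at 29337, with the 5 genes that have no pooled summit at the bottom; the dashed line marks rank 114, the length of the IDR list, and the dotted line rank 1000.

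The spread among members was wide, with few genes near the top. The median best pooled rank was 6701.5 over the 54 members with a summit (quartiles 4111.5 and 12275), against 7858 for other genes (quartiles 3257 and 14842). The order of these medians depended on the list and the window. It was 5342.5 against 5396.5 in replicate 1 but 7686.5 against 7300.5 in replicate 2, and with a window of 2000 bp upstream the pooled medians were 10418 and 9767. The share of members reached by rank 10000 was 62.7%, against 51.8% of other genes, while at rank 3000 the order of the shares was the reverse. Rank 10000 was not among the rank limits of the counts (300, 1000 and 3000), and no interval was computed for it. Window lengths had a median of 7818 bp for members and 7026 bp for other genes, and a longer window takes in more summits. The part of window length in these shares was not tested.

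**Figure D2:**
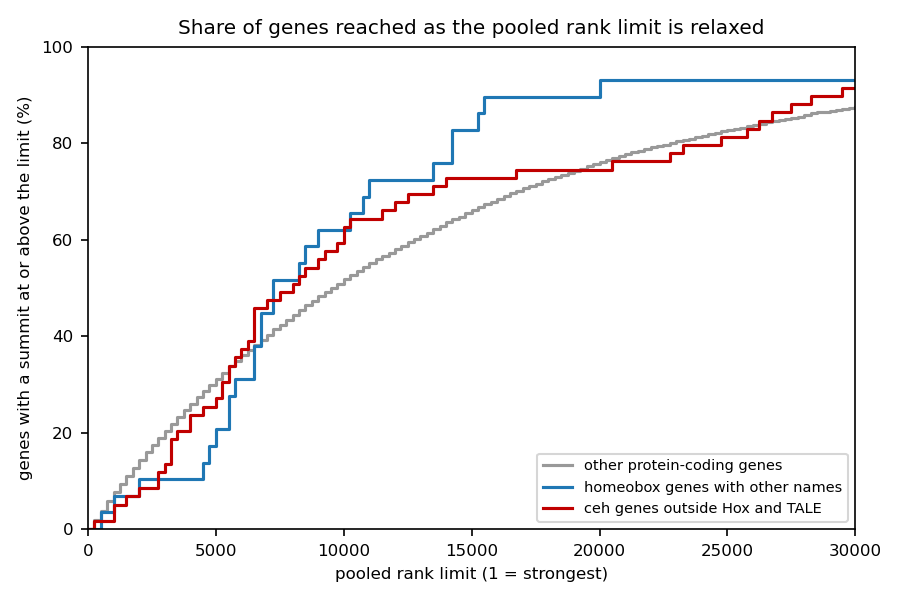
Percentage of genes with a pooled summit at or above a rank limit, as the limit is relaxed from the strongest peak to all 30000. The ceh genes (red) reach 5.08% at rank 1000 and 13.6% at rank 3000, below the other protein-coding genes (grey, 7.62% and 20.3%). At rank 10000 the ceh genes reach 62.7%, above the others (51.8%), and no interval was computed there. The homeobox genes with other names (blue) number 29.

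Among the CUT genes, which encode homeodomain proteins of the kind that act redundantly in pan-neuronal gene expression, ceh-38 carried the strongest UNC-62 peak of any member. Its pooled peak had rank 197 and a signal value of 28.6, spanned chrII:6951408-6951783, and had its summit at 6951596 in a 5' UTR of ceh-38, 70 bp inside the annotated gene start and 23 bp upstream of the nearest transcript start. In replicate 2 the summit fell on the same base with rank 99 and signal value 20.9. In replicate 1 the overlapping peak had rank 2844 and signal value 10.2, with its summit at 6951787 in an intron. As a share of its own list, this site stood within the first 0.404% in replicate 2 and the first 18.4% in replicate 1. The best replicate 1 summit in the window, of rank 2180, lay 2883 bp upstream, in an intron of malt-1.

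The other CUT genes had weaker peaks. ceh-21 and ceh-41 are neighbours on chromosome X and shared all 4 of their pooled summits. The strongest, of rank 3018 and signal value 17.001, lay in an intron of ceh-21, 138 bp from its start, and the overlapping peaks had rank 5258 in replicate 1 and 22587 in replicate 2. At ceh-48 the strongest summit had rank 4476 and lay 4068 bp upstream, in a coding exon of C17H12.10, and no replicate 1 summit lay in the window. The weakest member of the class was ceh-39, an X-signal gene that acts on xol-1 in sex determination, with 1 pooled summit of rank 25673. All 6 CUT members had a pooled summit, with a median best rank of 3747, the lowest median of the classes with more than 1 gene, over few genes.

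A further CUT gene, ceh-44, falls outside the rule by its name. RefSeq places it at chrIII:2530620-2543068, and the Ensembl annotation gives the same WormBase gene the name cone-1. The cone-1 window held 7 pooled summits, of which 2 were among the 1000 strongest, values noticed after the members were set. One lay in an intron, 4748 bp from the gene start, with pooled rank 480, signal value 23.8 and rank 228 in replicate 2, and no replicate 1 peak overlapped it. The other, of pooled rank 417, lay 1965 bp upstream and 31 bp from the start of Y54F10AM.15, with ranks 3107 and 479 in replicates 1 and 2. No IDR summit lay in this window.

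The ANTP genes outside Hox were the largest named class, with 17 members, of which 16 had a pooled summit. Their median best pooled rank was 6889.5, and 3 of them, ceh-23, ceh-22 and ceh-16, had a summit among the 3000 strongest. ceh-23, which is expressed in several neurons, had its strongest summit at 7836019 on chromosome III, 3573 bp upstream in intergenic sequence. The pooled rank was 956 and the signal value 20.9, and the overlapping peaks ranked 6604 in replicate 1 and 5438 in replicate 2. Neither replicate alone placed this site near the top of its list.

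ceh-22, a homologue of the NK-2 genes of heart development that acts in pharyngeal muscle, was the only member with a summit among the 1000 strongest peaks of each replicate. That is 1 of 59, or 1.69% (0.0429 to 9.09%), against 1.93% of the other genes. The peaks were not at the same place. Replicate 1 had rank 446 and signal value 13.98 at 10668234, which is 3684 bp upstream of ceh-22 and in an intron of twk-12, a potassium channel gene. Replicate 2 had rank 466 and signal value 14.4 at 10673882, in a coding exon 1964 bp into ceh-22 and 11 bp downstream of a transcript start. The summits were 5648 bp apart. At the upstream site the pooled peak had rank 1346 and the replicate 2 peak rank 14846, and at the exonic site the pooled peak had rank 8402 with no replicate 1 peak. No member had summits of both replicates among the 1000 strongest and within 200 bp of each other, against 1.22% of the other genes. For 59 genes this allows a share of up to 5.08%.

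**Figure D3:**
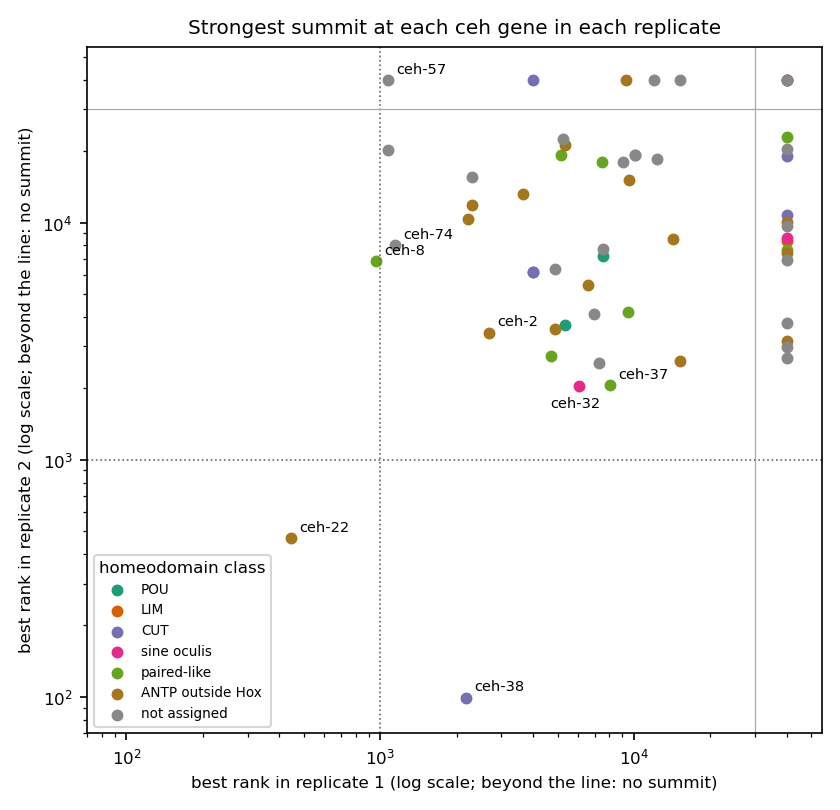
Best rank in replicate 1 (horizontal) against best rank in replicate 2 (vertical) for each ceh gene, both on log axes, coloured by homeodomain class. Points beyond the solid lines had no summit in that replicate, and dotted lines mark rank 1000; ceh-22 alone lies below 1000 on both axes, through summits 5648 bp apart, and ceh-38 has rank 99 in replicate 2 and 2180 in replicate 1.

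The remaining ANTP genes lay further down. At ceh-16, the worm engrailed gene, which acts in epidermal seam cells, the strongest summit had rank 2723 and lay 4152 bp upstream and 121 bp upstream of the start of C13G5.2, with rank 2292 in replicate 1 and 11812 in replicate 2. ceh-5 had 5 upstream summits inside its neighbour ocrl-1. The strongest, of rank 3313, lay 371 bp upstream of the start of eat-16, and the others lay inside eat-16 as well. A replicate 1 peak of rank 535 overlapped the strongest from a summit just beyond the window. ceh-43, a Distal-less homologue that acts in dopaminergic neurons, had rank 3990 upstream and rank 8105 in an intron, where replicate 2 had rank 2608. The best ranks of ceh-19, ceh-51, which acts in mesoderm, and ceh-27 were 6200, 6324 and 6399. Best ranks of the other ANTP members with a pooled summit ran from 7380 at ceh-2 to 28172 at ceh-7. ceh-12, which acts in ventral cord motor neurons, had no summit in any list.

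Of the 8 paired-like genes, 7 had a pooled summit, with a median best rank of 8769. The best were ceh-53, at rank 1954 with ranks 4721 and 2722 in replicates 1 and 2, and ceh-8, at rank 2708 with ranks 959 and 7647. Both of these summits lay nearer to another gene: the ceh-53 summit was 301 bp upstream of the start of C09G12.17, and the ceh-8 summit was 69 bp upstream of the start of fitm-2. The related Otx-type genes ceh-37 and ceh-36, which act in olfactory and other head sensory neurons, had unequal values. ceh-37 had a summit of rank 4758 in its 5' UTR, 123 bp from its start, with rank 2054 in replicate 2 and no overlapping peak in replicate 1. ceh-36 had no pooled summit and a replicate 2 summit of rank 23039. The remaining paired-like genes ranged from rank 8769 at ceh-45 to 26633 at ceh-17, the worm Phox2 homologue.

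The POU genes ceh-18, which acts in the gonadal sheath, and ceh-6, which acts in the excretory cell, had best ranks of 3114 and 5970. ceh-18 had 8 pooled summits, the most of any member, in a window of 19431 bp, and its strongest lay in a coding exon 12736 bp from the gene start. Among the sine oculis genes, ceh-32 had 6 pooled summits, ceh-34, a regulator of pharyngeal neurons, had a best rank of 12437, and ceh-33 had no summit in any list. The strongest ceh-32 summit had rank 3952 and lay 4092 bp upstream, with ranks 7886 and 4422 in replicates 1 and 2. A second, of rank 4217, lay 764 bp upstream, with rank 2053 in replicate 2 and no overlapping replicate 1 peak. The LIM gene ceh-14 had a single pooled summit, of rank 29337, which no replicate peak overlapped.

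The other 22 members were not assigned to a class. Of these, 20 had a pooled summit, with a median best rank of 7406.5. The strongest was that of ceh-74, at chrV:14177272-14177647, with its summit at 14177460, pooled rank 901 and signal value 21.1. It lay 619 bp upstream of ceh-74, the nearest start, and inside an intron of the neighbouring gene cest-2.3. The overlapping peaks ranked 1141 in replicate 1 and 8046 in replicate 2. At ceh-100 the strongest summit, of rank 2940, was in an intron of Y38E10A.8, where replicate 2 had no overlapping peak. ceh-57 and ceh-58 shared their 4 summits, the best of rank 5232 at 504 bp upstream of ceh-58, with rank 1073 in replicate 1 and no overlapping replicate 2 peak. ceh-81 and ceh-82 shared 1 summit, of rank 6451. The best ranks of ceh-63, ceh-88 and ceh-99 were 5332, 5371 and 5502. The other unassigned genes with a pooled summit ranged from rank 6952 at ceh-79 to 27354 at ceh-75. ceh-83 had no pooled summit, with best ranks of 9063 and 17960 in replicates 1 and 2, and ceh-84 had no summit in any list.

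**Figure D4:**
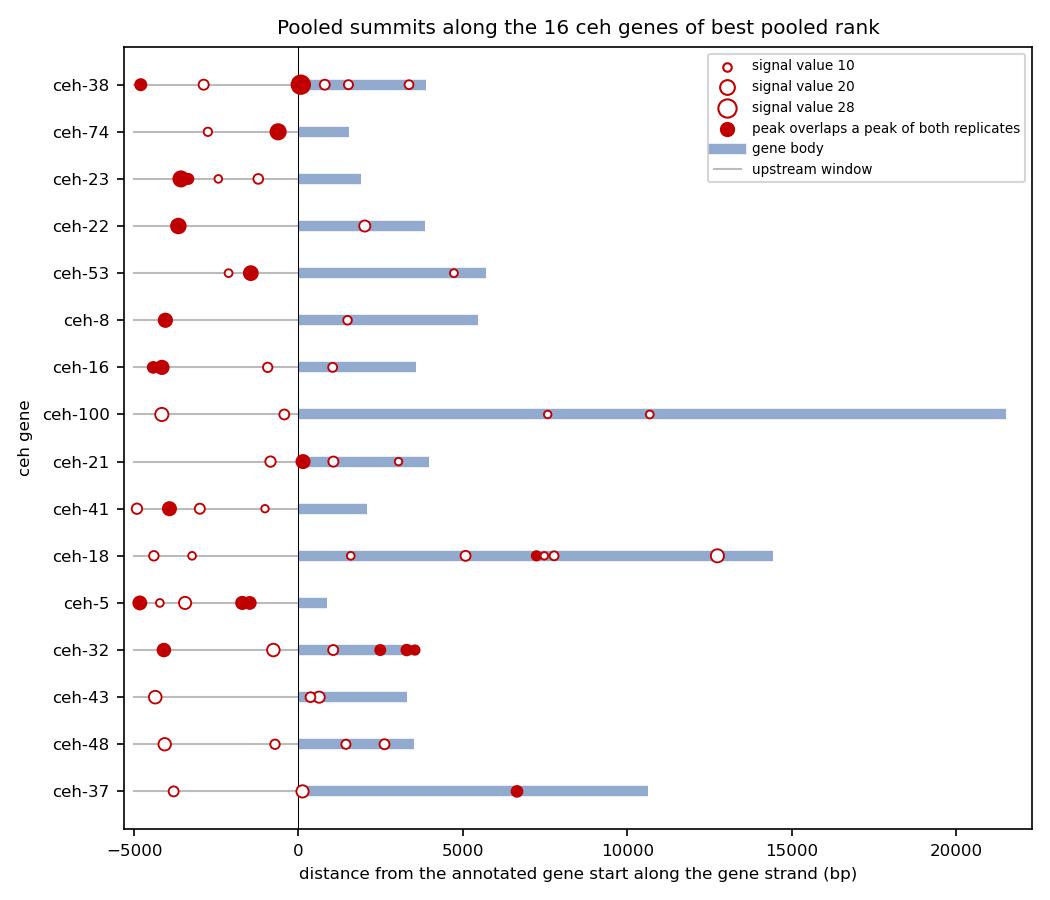
Pooled summits in the windows of the 16 ceh genes of best pooled rank, by distance from the annotated gene start along the gene's strand (bp). Circle area grows with the signal value, and filled circles are peaks that overlap a peak of both replicates; the strongest summit of ceh-38 lies 70 bp inside the gene, while those of ceh-23, ceh-22, ceh-8 and ceh-16 lie more than 3000 bp upstream.

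Many of the summits could belong to a neighbour as well as to the ceh gene. The 129 summits made 138 pairs of summit and member, of which 54 lay inside the member and 84 upstream, and 18 of the latter were within 1000 bp. Inside the genes, 27 pairs fell in introns, 16 in coding sequence, 7 in a 3' UTR and 4 in a 5' UTR. The strongest summit was upstream for 38 members and inside for 16. For 82 of the 129 summits the nearest transcript start was that of a member, though not always the member whose window held the summit. A summit nearest to their own start was found for 41 members. The window of another protein-coding gene also held 75 of the summits, and 31 lay inside the body of another gene. No such counts of place were made for other genes or other pooled peaks, so they are not traits particular to the members. The peak lists do not say which gene a site acts on.

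Replicate support at the member summits was close to that elsewhere. Of the 129 pooled peaks, 46.5% overlapped a replicate 1 peak, against 43.2% of the other pooled peaks, and 58.1% overlapped a replicate 2 peak, against 56.1%. Both replicates overlapped 25 of them, or 19.4% (12.95 to 27.3%), against 20.1%. Neither overlapped 19, or 14.7% (9.11 to 22.04%), against 20.7%. Across the 25 sites with a peak in both, the replicates' signal values had a Spearman rho of 0.403 and a Pearson r of 0.222, a description across sites that share both libraries. In single replicates, 2 members had a summit among the 1000 strongest of replicate 1 (ceh-22 and ceh-8) and 2 in replicate 2 (ceh-22 and ceh-38). These counts are 3.39% of members in each case (0.413 to 11.7%), against 7.63% and 6.98% of other genes. The genes differed from those of the pooled list, since only ceh-38 also had a summit among the 1000 strongest pooled peaks.

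The Meis core TGACAG was not detectably more or less frequent at member summits than at other pooled summits, whose share lay inside the members' interval. Within 100 bp of the summit, 9 of 129 held it, or 6.98% (3.24 to 12.8%), against 7.58%. Within 50 bp the shares were 3.88% and 3.84%. For summits close to a transcript start (1000 bp before it to 200 bp after it), 4 of 31 held it, or 12.9% (3.63 to 29.8%), against 6.95% in the same windows of other genes. The strongest of these was at ceh-38, where the match was 72 bp from the summit. The match of the printed ceh-32 window was 36 bp from its summit, and that of ceh-30, a BarH-type gene that keeps CEM neurons alive in males, was 2 bp from a summit of rank 8632. The printed ceh-37 window, in an intron, held TGACAG at 4 bp and at 61 bp from a summit of rank 9822, and TGATNNAT at 14 bp. ceh-18 had 3 summits with a match, of ranks 3114, 15591 and 19620, ceh-37 had a second one in its 5' UTR at rank 4758, and ceh-21 and ceh-41 shared a match at a summit of rank 12989.

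The other patterns also occurred at similar shares. TGATNNAT was found at 17 member summits, or 13.2% (7.87 to 20.3%), against 16.5%, and TAATTA at 13, or 10.1% (5.48 to 16.6%), against 8.76%. GAGAGA was found at 24, or 18.6% (12.3 to 26.4%), against 13.6%, which the interval contains. The patterns were searched separately on both strands, and a base could count for more than 1 of them. Mean GC content was 36.98% in the member windows and 36.39% in the others. A match is a description of the letters and not evidence of a bound site.

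Homeobox genes with other names were counted in the same way. This list of 29 genes, also outside Hox and TALE, had 0 IDR summits, which allows a share of up to 10.3%, and 2 genes with a summit among the 1000 strongest pooled peaks, or 6.90% (0.846 to 22.8%). These were nsy-7, of rank 434, and zfh-2, of rank 774. Over the whole list the median best pooled rank was 7031, against 6701.5 for the ceh members. The windows held 0.324 summits per kb, against 0.268. The intervals of the 2 lists overlapped for each of these shares, but over 29 genes they are too wide to show that the lists are alike.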

How the data were processed

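Per the deposited readme texts, the authors called narrowPeak lists for each replicate and for the pooled replicates. Each used a control from a different series (not analysed here), and the IDR list was derived from these lists. No aligner, caller or IDR threshold is given in the sources used here. The deposited signal value of each peak (column 7) was used to rank peaks within a list. The deposited column 9 is used only as a score, since 29433 of its 30000 pooled values are negative. Peaks are 376 bp wide, or 390 bp in replicate 2. Pooled peaks include background regions and cover 11.2% of the genome, so a pooled summit alone is not evidence of binding.

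Summits in ce11 were assigned to Ensembl release 115 genes (WBcel235), and sequences were read from the RefSeq genome of that build. The ce10 lists were not used. With 1 group, no test was made. Shares have 95% exact Clopper-Pearson intervals, and a count of 0 allows 3 counts of the total. Genes were named by rank: the 25 members of best pooled rank, the best of each class, those with no pooled summit and those sharing a summit, and others mentioned beside them were chosen after their values were seen. The members and lists were chosen with earlier results of these data known. Alternatives covered windows, rank limits, overlap rules, flanks, the score and single replicates. The assignment was tested on simulated peaks. The software was SciPy 1.17.1, pandas 2.3.3 and NumPy 2.4.6 under Python 3.11.15, with matplotlib 3.10.9 for the figures.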

Additional observations from a re-analysis of the deposited data

How the results depend on the processing

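The count of 0 members with an IDR summit could not rise under the 3 other windows tried, which only narrow the main one or drop summits. Nor could it rise with the IDR peaks at or above the median signal value, a part of the same list. The 114 strongest pooled peaks held no member either, since the best pooled rank of any member was 197. These settings are therefore no further support for the count. A single replicate has no IDR list, and among the 114 strongest peaks of a replicate the count ranged from 0 to 1 (ceh-38 in replicate 2, against 0.844% of other genes there). With a window of 2000 bp upstream, of 1000 bp upstream to 200 bp downstream of any start, or with the nearest start only, members with a summit among the 1000 strongest of each replicate numbered 0, against 1.17%, 0.502% and 1.05% of other genes. They numbered 0 for summits within 200 bp (1.22%), and 2, or 3.39%, within the 3000 strongest of each (7.78%). The median best rank under those windows was 10418, 10088.5 and 9835, against 9767, 12629 and 10059. The share with TGACAG was 9.41%, 12.9% and 9.41%, against 7.46%, 6.95% and 7.56%, and 3.88% with a 50 bp flank, against 3.84% of other pooled peaks. The second window left 26 members with a pooled summit, or 44.1% (39.9% of other genes), and 0.350 summits per kb (0.343). The nearest start gave 0.177 per kb (0.304). That rule drops member summits nearer to another gene's start but keeps the full window length, so these values do not compare densities. Overlap with both replicates left 16 members (27.1%, against 33.1%), and overlap by 50% of the width 13 (22.03%, against 28.2%). Members among the 300 and 3000 strongest pooled peaks numbered 1 and 8, or 1.69% and 13.6%, against 2.29% and 20.3%. Ranking by the deposited score, chosen after seeing the data, gave 5 members among the 1000 ranked highest, or 8.47%, against 7.69%. The order of the shares was thus reversed. Of these members, ceh-18, ceh-21, ceh-41 and ceh-24 entered through peaks of signal rank 29510 to 29603 with scores below 0, and ceh-21 and ceh-41 shared theirs. The median best rank by score was 9562.5, against 7330.5. Replicates 1 and 2 taken alone each gave 2 members among the 1000 strongest, or 3.39%, against 7.63% and 6.98% of other genes. A summit lay at 40 and 50 members, or 67.8% and 84.7%, against 68.4% and 82.3%. Median ranks were 5342.5 and 7686.5, against 5396.5 and 7300.5. Summits per kb were 0.148 and 0.227, against 0.157 and 0.249. TGACAG was held by 5.63% and 8.26%, against 7.66% and 7.56%. Causes of these changes were not tested. Ranking by column 8 was not run, since it holds the same value throughout. No paired analysis was possible because there is 1 group. With 59 genes and unknown depth, a share near 0.874% could not be seen.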

Other observations

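The deposited score orders the pooled peaks differently from the signal value. Over the 30000 pooled peaks the Spearman rho between them was -0.853, while over the 114 IDR peaks it was 0.896, both descriptions across peaks of 1 list. The strongest ceh-38 summit ranked 197 by signal and 198 by score. The ceh-14 summit ranked 29337 by signal and 1130 by score, and a ceh-18 summit ranked 29603 by signal and 634 by score. Of the 1000 pooled peaks ranked highest by either column, 603 were shared.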
